A study of Homo sapiens with 12 samples.

Results

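The mRNAs described here are 7 transcripts known for upstream open reading frames (uORFs) that hold back translation of the main coding region: ATF4 (ENSG00000128272), ATF5 (ENSG00000169136), DDIT3 (ENSG00000175197), PPP1R15A (ENSG00000087074), PPP1R15B (ENSG00000158615), IFRD1 (ENSG00000006652) and SLC35A4 (ENSG00000176087). They were chosen by identifier from what is known of their leaders, by a rule that uses no measured value. Earlier results of these data were known when they were proposed. They make up 7 of the 57820 gene identifiers in the data. All 7 passed the filter on low counts, as did 16920 genes in all. RNA came from HEK293, a human embryonic kidney cell line, as Flp-In T-Rex cells stably overexpressing FLAG/HA-tagged RPL12 (uL11), a protein of the large ribosomal subunit. One line carried the wild-type form (WT), one had alanine in place of serine 38 (S38A, which cannot be phosphorylated there) and one aspartate (S38D, a mimic of phosphorylation). No line is described as lacking its own RPL12, and how many colonies stand behind each line is not stated. From each line 2 pooled 80S fractions of sucrose gradients (single ribosomes, or monosomes) each gave an input library and a library from anti-FLAG immunoprecipitation (IP), 12 polyadenylated RNA libraries in 6 groups of 2.

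In the integrated stress response, kinases phosphorylate the initiation factor eIF2, which lowers protein synthesis in general while translation of a few mRNAs continues or increases. Upstream reading frames underlie this: ribosomes normally initiate there and are kept from the main coding region, and with less active eIF2 more of them pass to it. An mRNA whose ribosomes mostly sit on a short upstream frame carries few ribosomes at a time, so such mRNAs are looked for on monosomes. These libraries hold no polysomal or total RNA, so how far the 7 mRNAs are concentrated on monosomes is not measured here. What the data give is their level in the 80S fraction and in the part of it recovered with tagged RPL12.

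Input libraries held 7434431 to 8723130 gene counts and IP libraries 3186164 to 7430881, and the members had between 383 and 4875 counts in every library. Levels are CPM (counts relative to the size of the library) scaled by the trimmed mean of M values (TMM). They are not corrected for transcript length and are compared between libraries, not between genes. ERCC spike-in RNA took 0.116% to 0.484% of counts in inputs and 1.44% to 5.43% in IP libraries. No IP from untagged cells is included, so RNA bound without the tag cannot be told apart from RNA recovered through RPL12. Nothing in the labels says that replicates were separate cultures, and the p-values therefore cover no more than the variation among these 12 libraries.

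Recovery with tagged RPL12 was compared with the 80S input over the 3 lines in 1 fit of all 12 libraries. Of the 7 mRNAs, 4 rose in IP and none fell: ATF4, DDIT3, PPP1R15A and ATF5 (edgeR quasi-likelihood test, Benjamini-Hochberg adjusted p under 0.05 over 16920 genes). Of all genes tested, 15.9% rose. All 7 lie in the most abundant quartile of the tested genes (4230 genes), where 37.1% rose. The median log2 change was 0.49 over the 7 members, -0.04 over all genes and 0.17 over that quartile. With total counts in place of TMM scaling, 1298 genes rose and 5251 fell, the median of all genes was -0.25, and 3 members rose (ATF4, DDIT3 and PPP1R15A).

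**Figure D1:**
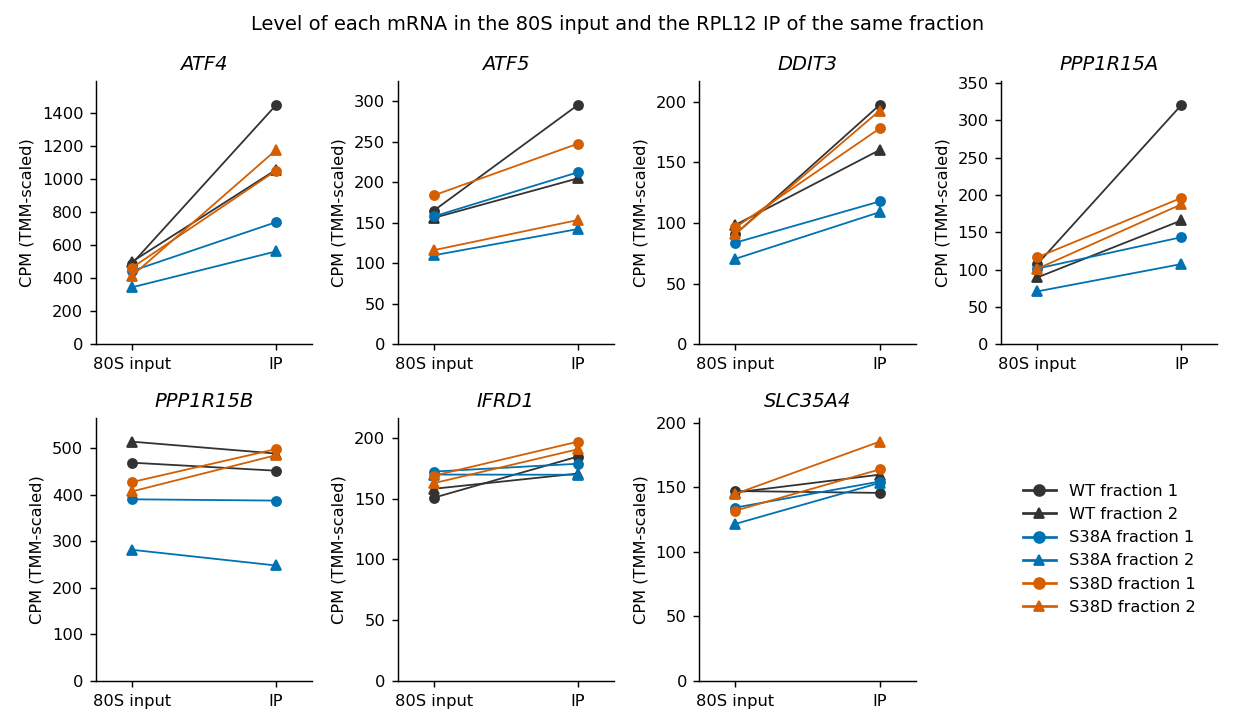
Level of each mRNA in CPM (y axis, TMM-scaled, from 0) in the 80S input and in the IP of the same fraction (x axis), joined by a line for each of the 6 fractions, coloured by line. ATF4, DDIT3, PPP1R15A and ATF5 were higher in IP in all 6 fractions, whereas the lines of PPP1R15B are nearly flat.

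ATF4 encodes the bZIP transcription factor at the centre of this response. Its 2 WT inputs stood at 487 and 499 CPM, those of S38A at 443 and 344 and those of S38D at 463 and 414. The 2 WT IP libraries stood at 1448 and 1056 CPM, those of S38A at 739 and 562 and those of S38D at 1051 and 1176. Each of the 6 IP libraries was above each of the 6 inputs, and the S38A IP libraries were the lowest of the IP group. The share of all genes with such separation, or higher in every fraction, was not counted, for ATF4 or any other member. ATF4 rose 2.20-fold in IP (log2 1.14, SE 0.12, edgeR adjusted p = 0.000136), higher in 6 of 6 fractions. That change ranked 222 of 16920 genes from the top, and 56 of 4230 in its abundance quartile. With total counts its log2 change was 0.92 (adjusted p = 7.9e-05).

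DDIT3 encodes CHOP, a bZIP factor induced downstream of ATF4. WT inputs held 90.8 and 98.4 CPM, S38A inputs 83.7 and 70.4 and S38D inputs 96.3 and 90.9. WT IP libraries held 197 and 160 CPM, S38A 118 and 109 and S38D 178 and 193. As for ATF4, the IP and input libraries did not overlap. The S38A libraries of DDIT3 were the lowest of the inputs and of the IP libraries. DDIT3 rose 1.76-fold (log2 0.82, SE 0.09, edgeR adjusted p = 0.000155), higher in 6 of 6 fractions, and ranked 678 from the top.

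PPP1R15A encodes GADD34, the stress-induced subunit that directs protein phosphatase 1 to eIF2 and so reverses the response. Inputs of WT held 107 and 89.4 CPM, of S38A 101 and 70.7 and of S38D 116 and 101. IP libraries of WT held 320 and 166 CPM, of S38A 143 and 107 and of S38D 196 and 187. The first WT IP library stood far above the rest, and the lower S38A IP library lay within the input range, so the groups overlapped when lines were mixed. PPP1R15A rose 1.85-fold (log2 0.89, SE 0.16, edgeR adjusted p = 0.00138), higher in 6 of 6 fractions.

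ATF5 encodes another bZIP factor under uORF control. Its input levels ranged from 110 to 184 CPM with a median of 157, and its IP levels from 142 to 296 with a median of 209. The ranges overlapped. The inputs of a line lay far apart in S38D, at 184 and 116 CPM, and close together in WT, at 165 and 156. ATF5 rose 1.40-fold (log2 0.49, SE 0.17, edgeR adjusted p = 0.0457, close to the threshold), higher in 6 of 6 fractions. Its change ranked 2129 of 16920 genes from the top and 895 of 4230 in its abundance quartile, where 37.1% rose. With the fraction as a block, which removes differences between fractions, the log2 change was 0.48 (SE 0.07, edgeR adjusted p = 0.000387). The call was lost with total counts (log2 0.27, adjusted p = 0.212), with voom and in 7 of the 12 fits that left out 1 library: without either WT input, the second S38A input, the second S38D input, the first WT IP, the first S38A IP or the first S38D IP library.

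**Figure D2:**
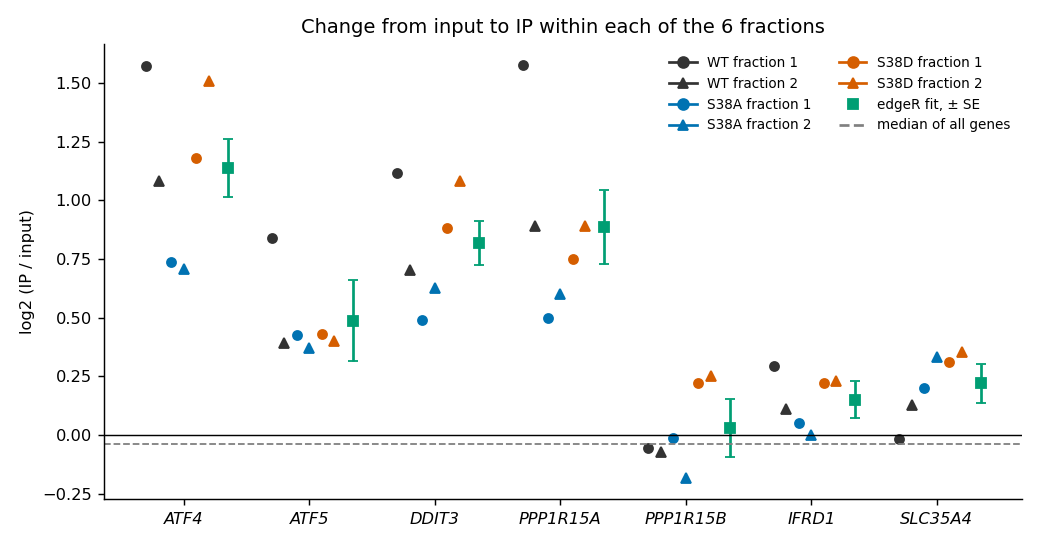
Log2 ratio of IP to input level within each fraction (y axis) for the 7 mRNAs (x axis). Circles and triangles are the first and second fraction of a line, green squares the edgeR estimate over the 3 lines with its SE, and the dashed line the median of all genes at -0.04. ATF4 spans 0.71 to 1.57, and PPP1R15B -0.18 to 0.25.

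The other 3 mRNAs did not pass. PPP1R15B encodes CReP, the constitutive counterpart of GADD34. It stood at 468 and 514 CPM in the inputs of WT, at 390 and 281 in those of S38A and at 427 and 407 in those of S38D. In IP it stood at 451 and 488 CPM for WT, 387 and 248 for S38A and 498 and 485 for S38D. Input and IP overlapped in WT and in S38A, whereas both S38D IP libraries lay above both S38D inputs, and these were the 2 of 6 fractions that were higher in IP. The log2 change was 0.03 (SE 0.12, edgeR adjusted p = 0.877), and its sign turned with total counts (-0.19).

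IFRD1, which encodes a transcriptional co-regulator, ranged from 151 to 172 CPM in inputs and from 170 to 197 in IP libraries. It was higher in IP in 5 of 6 fractions, with a log2 change of 0.15 (SE 0.08, edgeR adjusted p = 0.17) that became -0.07 with total counts. SLC35A4, a member of the nucleotide sugar transporter family whose uORF is itself known to be translated, ranged from 122 to 147 CPM in inputs and from 146 to 185 in IP libraries. It was higher in 5 of 6 fractions, with a log2 change of 0.22 (SE 0.08, edgeR adjusted p = 0.0612). That change ranked 1911 of 4230 in its abundance quartile, whose median was 0.17. SLC35A4 passed with the fraction as a block (log2 0.22, SE 0.06, edgeR adjusted p = 0.0134), with RLE size factors, with DESeq2 and without the first WT IP library. In the block, RLE and DESeq2 fits 3804, 2841 and 2944 of 16920 genes rose. With total counts the log2 change of SLC35A4 was 0.01.

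**Figure D3:**
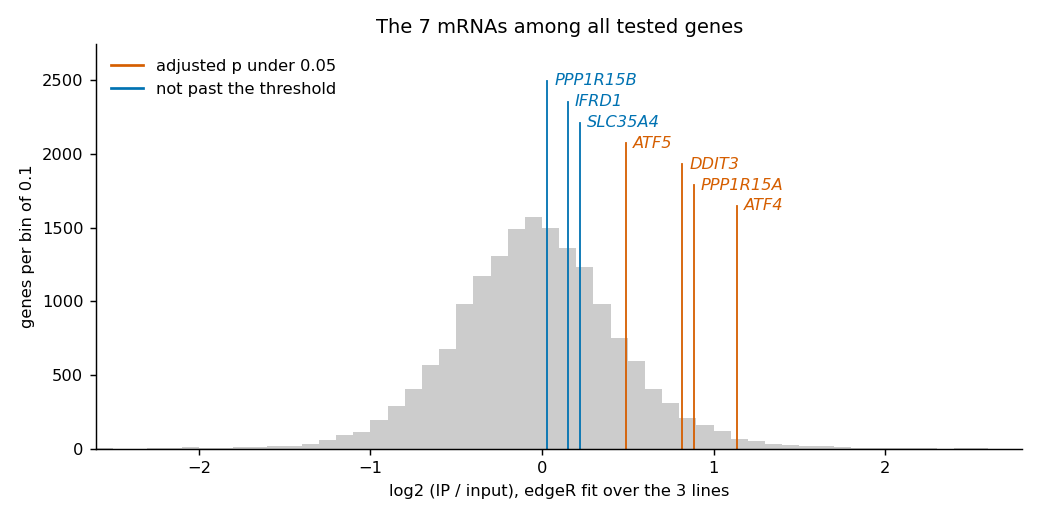
Histogram of the log2 change from input to IP over the 3 lines for all 16920 tested genes (x axis, bins of 0.1; y axis, genes per bin), with a vertical line at each of the 7 mRNAs. ATF4 at 1.14, PPP1R15A at 0.89 and DDIT3 at 0.82 lie in the right tail, and PPP1R15B at 0.03 lies near the centre.

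The members formed related pairs that differed in recovery. To compare them without any scaling between libraries, the ratio of their raw counts was taken within each library. The pairs were chosen after their values had been seen, so the ratios are given as a description. A test of both ratios was run but is not used, for the same reason. The ratio of PPP1R15A to PPP1R15B counts was 0.229 and 0.174 in WT inputs, while S38A inputs gave 0.26 and 0.251 and S38D inputs 0.273 and 0.248. WT IP libraries gave 0.71 and 0.34, S38A 0.37 and 0.433 and S38D 0.394 and 0.387. The lowest IP ratio thus lay above the highest input ratio. It was 1.80-fold higher in IP (mean log2 change 0.84 ± 0.42, SD over 6 fractions), and all 6 fractions shared the direction. Without the first WT fraction the mean log2 change was 0.69. The ratio depends on gene length and says nothing of which mRNA is more abundant.

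The ratio of ATF4 to ATF5 counts ranged from 2.52 to 3.56 in inputs and from 3.48 to 7.66 in IP libraries, ranges that overlapped slightly between lines. It was 1.57-fold higher in IP (mean log2 change 0.65 ± 0.30, SD over 6 fractions), again in all 6 fractions. Within S38A the ratio went from 2.81 to 3.48 in the first fraction and from 3.14 to 3.95 in the second.

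**Figure D4:**
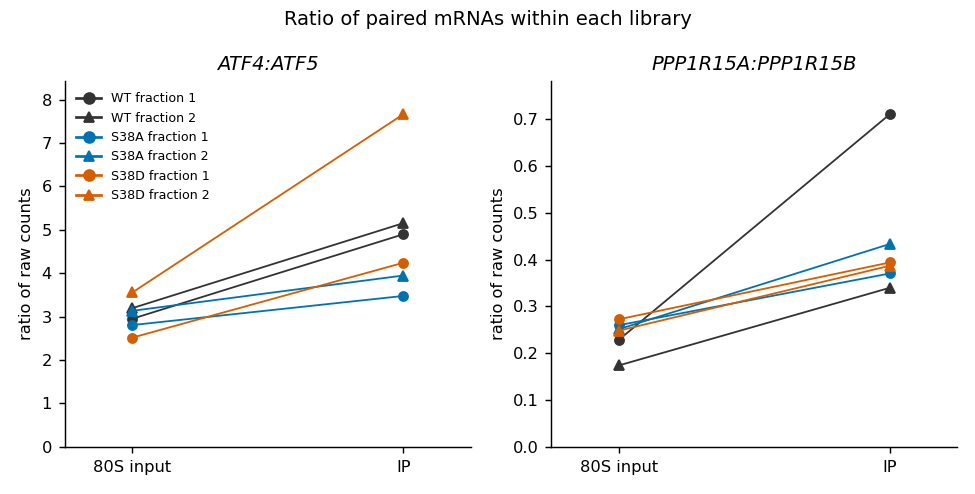
Ratio of raw counts (y axis, from 0) of ATF4 to ATF5 and of PPP1R15A to PPP1R15B in the input and the IP library of each fraction (x axis), joined by a line and coloured by line. Both ratios were higher in IP in all 6 fractions, and the PPP1R15A to PPP1R15B ratio of the first WT IP library, 0.71, stands apart.

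PPP1R15A and PPP1R15B are shown by the DNA just before their starts, because they are the pair of related genes whose mRNAs were recovered most differently. All 7 members were found by symbol in the RefSeq promoter table (GRCh38.p14), with 14 windows among them for their alternative starts, and the 250 bases before each start were searched. The core of the C/EBP-ATF response element, written TGATGNAA and searched on both strands, was found in 1 of 14 windows, that of PPP1R15B, and in 3.14% of 35116 windows of all genes. The cyclic AMP response element, TGACGTCA, which reads the same on both strands, was found in 3 of 14 windows, that of PPP1R15A and 2 overlapping IFRD1 windows that hold the same site, and in 1.65% of all windows. The second motif was chosen after the sequences had been seen, and no member window held both. Recovery of 80S ribosomes does not measure transcription, and a match is a description of these letters only. The capitals mark the matches. The PPP1R15A window is chr19:48872171-48872420 on the plus strand, and the PPP1R15B window is chr1:204411818-204412067 on the minus strand.
PPP1R15A: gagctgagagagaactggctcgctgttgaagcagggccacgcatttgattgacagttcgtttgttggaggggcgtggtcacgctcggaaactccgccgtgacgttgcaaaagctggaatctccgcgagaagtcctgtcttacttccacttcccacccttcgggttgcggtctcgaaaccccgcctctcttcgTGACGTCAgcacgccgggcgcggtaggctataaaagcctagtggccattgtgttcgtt
PPP1R15B: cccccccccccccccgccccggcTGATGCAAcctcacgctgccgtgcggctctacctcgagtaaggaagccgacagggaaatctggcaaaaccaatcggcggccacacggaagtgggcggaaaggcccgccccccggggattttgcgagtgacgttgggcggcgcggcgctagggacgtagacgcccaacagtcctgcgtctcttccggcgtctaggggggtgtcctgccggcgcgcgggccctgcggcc

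Each line was then taken separately, in the same fit. In WT, 3 of 7 members rose in IP, against 5.77% of all genes. The share in the members' abundance quartile was counted only over the 3 lines, where it was 37.1%, and not for single lines. ATF4 rose by 1.34 on the log2 scale (SE 0.21, edgeR adjusted p = 0.00724), PPP1R15A by 1.30 (SE 0.28, adjusted p = 0.0151) and DDIT3 by 0.91 (SE 0.16, adjusted p = 0.00833). ATF5 stood at 0.64 (SE 0.30, adjusted p = 0.186) and passed with no filter on low counts and with the fraction as a block (log2 0.62, edgeR adjusted p = 0.00525). PPP1R15B stood at -0.06, SLC35A4 at 0.06 and IFRD1 at 0.20. No member passed in WT without the first or the second WT input library, or when only the 4 WT libraries were fitted. Those fits called 212, 0 and 0 genes in all, and ATF4 stood at 1.32, 1.36 and 1.38 in them. PPP1R15A was at 0.77 and did not pass without the first WT IP library (edgeR adjusted p = 0.109).

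In S38D, 2 of 7 members rose, against 3.13% of all genes. ATF4 rose by 1.34 (SE 0.21, edgeR adjusted p = 0.0196) and DDIT3 by 0.98 (SE 0.16, adjusted p = 0.0196). PPP1R15A stood at 0.82 (SE 0.27, adjusted p = 0.0997) and passed in 7 of 20 other fits, DESeq2 and voom among them. With the fraction as a block 4 members passed, PPP1R15A (log2 0.82, adjusted p = 0.00538) and ATF5 (log2 0.42, adjusted p = 0.0396) being the others. In that fit 1809 of 16920 genes rose in S38D. PPP1R15B stood at 0.24, IFRD1 at 0.23 and SLC35A4 at 0.33, and none of these 3 passed in any fit. No member passed when any 1 of the 4 S38D libraries was left out. Those fits called between 0 and 4 genes in all, and ATF4 stood between 1.26 and 1.43 in them.

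In S38A, 0 of 7 members passed in edgeR, as did 0% of all genes, with 2 members and 2575 genes at unadjusted p under 0.05. ATF4 stood at 0.72 (SE 0.21, edgeR adjusted p = 0.167), DDIT3 at 0.56 (SE 0.16, adjusted p = 0.162) and PPP1R15A at 0.54 (SE 0.27, adjusted p = 0.372). All 3 were higher in IP in 2 of 2 fractions, and all 3 passed with the fraction as a block (edgeR adjusted p = 0.011, 0.022 and 0.0405), a fit in which 1001 of 16920 genes rose in S38A. DESeq2 called ATF4 and DDIT3, in a fit where 236 of 16920 genes rose, and voom called no member and no other gene. ATF4 also passed with no filter on low counts, where 235 of 33516 genes rose. ATF5 stood at 0.40, SLC35A4 at 0.27, IFRD1 at 0.03 and PPP1R15B at -0.08.

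**Figure D5:**
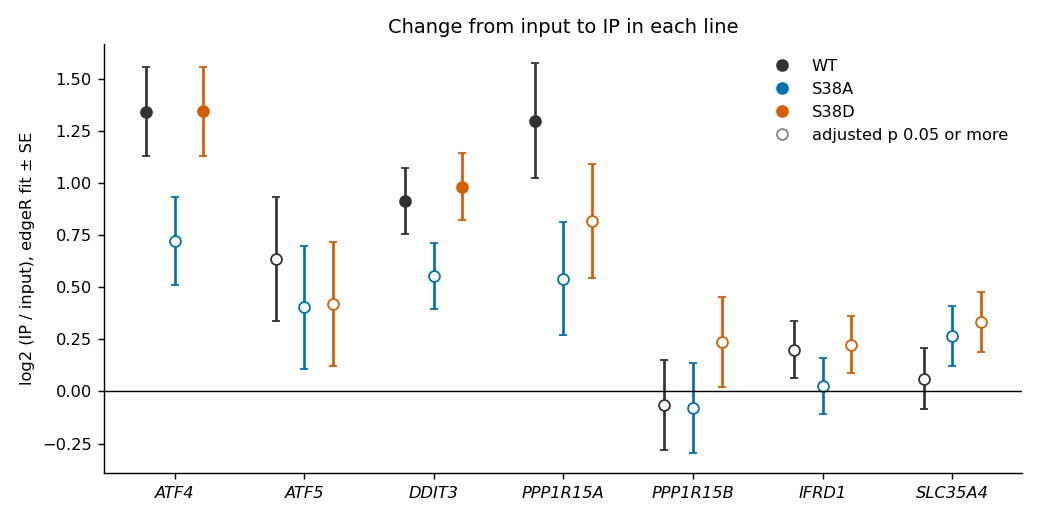
Log2 change from input to IP in WT, S38A and S38D (y axis, edgeR estimate with SE) for the 7 mRNAs (x axis). Filled points passed an adjusted p of 0.05. The S38A estimates of ATF4, 0.72, and DDIT3, 0.56, lie below those of WT, 1.34 and 0.91, and S38D, 1.34 and 0.98.

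Whether recovery differed between lines was tested by the interaction of line and IP. For S38A versus WT 0 of 7 members passed in edgeR, as did 0% of all genes. The members' log2 differences ran from -0.76 to 0.21 with a median of -0.23, where all genes had a median of 0.05. PPP1R15A was at -0.76 (SE 0.39), ATF4 at -0.62 (SE 0.30) and DDIT3 at -0.36 (SE 0.22), each with an edgeR adjusted p of 1.00, and 0 members and 393 genes were at unadjusted p under 0.05. DESeq2 and voom called 0 members in this and in the other 2 line differences. With total counts ATF4 stood at -0.47, beside a median of 0.19 over all genes. With the fraction as a block ATF4 stood at -0.61 (SE 0.18, adjusted p = 0.674) and PPP1R15A at -0.69 (SE 0.21, adjusted p = 0.674). These 3 differences kept their sign in all 20 other fits, in which PPP1R15A ran from -1.16 to -0.26 and was -0.26 without the first WT IP library.

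For S38D versus WT 0 of 7 members passed, as did 0% of all genes, and ATF4 differed by 0.00 (SE 0.30, edgeR adjusted p = 1.00). At unadjusted p under 0.05 there were 0 members and 134 genes. For S38D versus S38A 0 of 7 passed, again as did 0% of all genes, with 0 members and 109 genes at unadjusted p under 0.05. All 7 members had a positive estimate there, between 0.02 and 0.62, with a median of 0.28 against -0.02 for all genes. ATF4 had the highest of them at 0.62 (SE 0.30, edgeR adjusted p = 1.00) and ATF5 the lowest at 0.02 (SE 0.42). The share of all genes with a positive estimate was not counted. The comparisons share libraries, so a low S38A value enters more than one of them.

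The spike-in share of the IP libraries varied along with the ATF4 changes. In the S38A IP libraries ERCC RNA took 2.15% and 1.44% of counts, the lowest of the 6, beside within-fraction log2 changes of ATF4 of 0.74 and 0.71. In the first WT and the second S38D IP library it took 5.43% and 5.18%, the highest, beside 1.57 and 1.51. The remaining IP libraries had 2.57% (WT) and 3.79% (S38D), beside 1.08 and 1.18. Over the 6 fractions the order of the spike-in shares was the order of the ATF4 changes. IFRD1 kept that order as well, and the other members did not. In S38A, DDIT3 and PPP1R15A stood at 0.49 and 0.50 in the first fraction and 0.63 and 0.60 in the second. SLC35A4 was lowest, at -0.01, in the first WT fraction, where the share was highest. How many of all genes kept the order was not counted. The gene counts of the IP libraries ran in the reverse order of the spike-in shares, from 3186164 in the first WT to 7430881 in the second S38A library. TMM factors were 0.827 and 1.04 in these 2 libraries, the lowest and highest of the IP group. The part of spike-in share, gene counts or scaling in the differences between lines was not tested.

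A separate fit of the 6 inputs, with 16728 genes tested, compared the lines before IP. For S38A versus WT 0 of 7 members passed in edgeR, as did 0% of all genes, with 1 member and 2566 genes at unadjusted p under 0.05. That member was PPP1R15B, 1.44-fold lower in S38A (log2 -0.53, SE 0.17, edgeR adjusted p = 0.219), and both S38A inputs lay below both WT inputs. PPP1R15B passed with DESeq2, with no filter on low counts and without the first S38A input (log2 -0.78), was at -0.31 without the second, and was not called by voom. Scaled to the spike-in it was at -0.98 with an SE of 1.02. ATF4 stood at -0.30 (SE 0.16, edgeR adjusted p = 0.404), and 6 of 7 members had a negative estimate, with a median of -0.24 against -0.02 for all genes. The share of all genes with a negative estimate was not counted. For S38D versus WT 0 of 7 passed, where 0.00598% of all genes did, and the members ran from -0.22 to 0.16, and 0 of them had an unadjusted p under 0.05. For S38D versus S38A 0 of 7 passed, again beside 0.00598% of all genes, and the members ran from -0.05 to 0.34, with 0 at unadjusted p under 0.05. DESeq2 and voom called 0 members in either. Fewer 80S particles on an mRNA and less of that mRNA in the cell cannot be told apart in these libraries.

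Ordered by mean level, ATF4 stood highest in WT IP, at 1252 ± 277 CPM, then in S38D IP at 1113 ± 88.1, S38A IP at 650 ± 125, WT input at 493 ± 8.3, S38D input at 438 ± 34.99 and S38A input at 394 ± 70.0 (SD, n = 2 each). WT IP and S38D IP overlapped, as did S38D and S38A input, and every other neighbour was separate. DDIT3 was highest in S38D IP at 185 ± 10.4 CPM and WT IP at 179 ± 26.3, which overlapped, followed by S38A IP at 113 ± 6.3. PPP1R15A was highest in WT IP at 243 ± 109 CPM and S38D IP at 192 ± 6.1, which overlapped, and S38A IP at 125 ± 25.4 overlapped with S38D input at 109 ± 10.9. The 6 groups of ATF5 overlapped from each neighbour to the next. The order of PPP1R15B mixed library types: S38D IP, WT input and WT IP overlapped at the top, between 470 and 491 CPM, and S38A input and IP were lowest, at 336 ± 76.6 and 317 ± 98.5 CPM. IFRD1 and SLC35A4 were highest in S38D IP, at 194 ± 4.4 and 174 ± 15.2 CPM, separate from the next group. The whole range of IFRD1 group means ran only from 154 to 194 CPM.

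Likeness of pattern was measured as the root mean square difference between mean-centred log2 CPM over the 12 libraries. Among the members the closest pair was IFRD1 and SLC35A4, which differed by 0.14. ATF4, DDIT3 and PPP1R15A lay within 0.20 to 0.21 of one another. ATF4 and IFRD1 were the farthest apart at 0.59, and the related PPP1R15A and PPP1R15B differed by 0.51. Among 11693 genes with a mean of at least 10 CPM, the non-member closest to ATF4 was ENSG00000065978.13, at 0.09. It averaged 672 ± 187 CPM in IP and 317 ± 51.4 in input (SD, n = 6 each), a log2 change of 1.06 (SE 0.13, edgeR adjusted p = 0.000233). Next was ENSG00000150991.10, at 0.10, with 351 ± 99.9 CPM in IP and 158 ± 18.7 in input and a log2 change of 1.12 (SE 0.12, edgeR adjusted p = 0.00014). Both were nearer to ATF4 than any other member was.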

How the data were processed

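The authors deposited raw read counts per Ensembl gene identifier and per ERCC sequence, 1 table per library. Per the submitters' processing notes, STAR 2.4.2a, bcl2fastq 2.16.0.10 and DESeq2 were used with build hg19. No source used here gives the counter, strand handling or annotation release, and genes overlapping a member may share its counts. Symbols came with the choice of members. The reference table held 0 Ensembl identifiers, so the 4 lists of related genes (61 symbols) matched none and were not analysed here, nor were RPL12 and cell type markers. The rule for the members uses no measured value, but they and the lists were proposed with earlier results of these data known. All 7 members are described, and besides them the 2 genes closest to ATF4.

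Counts were fitted in R 4.3.3 with edgeR 4.0.16 (filterByExpr with a minimum count of 10, TMM, glmQLFit and glmQLFTest on 6 group means, Benjamini-Hochberg adjustment over all genes in each of 10 comparisons). SE is the log2 change divided by the square root of F. The prior count for log2 CPM was 2. ERCC counts stayed out of library sizes. On simulated counts, only IP versus input over the 3 lines and input S38A versus WT were tried, and the outcome is not given here. Simulated libraries of 1 fraction were not tied to each other. Alternatives were RLE, total counts, DESeq2 1.42.0, voom (limma 3.58.1), other filters, other sets of libraries, spike-in scaling of inputs, and omission of each library. Replicates differed by more than sampling noise (chi-square per degree of freedom 5.74 to 17.4). Input and IP of 1 fraction are paired per the labels, and their deviations from group means correlated across 16920 genes at 0.28 (WT), 0.64 (S38A) and 0.54 (S38D), so a fit with the fraction as replicate block was run beside the others.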

Additional observations from a re-analysis of the deposited data

Results flagged for a closer look

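ERCC spike-in RNA, which enters no library size here, averaged 3.43% ± 1.65 of the counts of the 6 IP libraries against 0.305% ± 0.127 of those of the 6 inputs (SD), a signal outside the gene counts that was above its level in the inputs. Its spread between IP libraries is given beside the ATF4 values above.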

How the results depend on the processing

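Over the 3 lines ATF4, DDIT3 and PPP1R15A passed in all 19 other fits, with log2 changes of 0.92 to 1.21, 0.60 to 0.86 and 0.66 to 1.02. The number of members called there was 4 in the main fit, 3 with total counts and with voom, and 5 with RLE, DESeq2 and the replicate block. It moved in other comparisons too, and the cause was not tested. In WT 3 became 0 with only the libraries compared, and between 0 and 3 on leaving out 1 library. For S38A 0 became 2 with DESeq2, 1 with no filter and 3 with the replicate block. In S38D 2 became 4 with the replicate block, and 0 to 3 with 1 library left out. For input S38A versus WT 0 became 1 with DESeq2, 1 with no filter, and 0 to 1 with 1 library left out. The replicate block changed no call of a line difference. Over all genes, the block took 5378 calls over the 3 lines to 7860, 1903 in WT to 4818, 0 in S38A to 2079 and 824 in S38D to 3379.

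Some small values turned sign, among them PPP1R15B and IFRD1 in S38D, at 0.24 and 0.23 in the main fit. Total counts also moved the median of all genes, to -0.31 in S38D and -0.30 in WT. With total counts PPP1R15B was at -0.19 over the 3 lines and -0.024 in S38D, IFRD1 at -0.066 over the 3 lines, -0.067 in WT, -0.095 in S38A and -0.036 in S38D, and SLC35A4 at -0.20 in WT. With no filter PPP1R15B was at -0.0049 over the 3 lines. ATF4 in S38D versus WT was at -0.0035 with RLE size factors, -0.0035 with DESeq2, -0.0070 with voom, -0.013 when genes had a mean CPM of 10 or more and -0.0068 with only the libraries compared. With 1 library left out, PPP1R15B ran from -0.11 to 0.13 over the 3 lines, -0.13 to 0.013 in WT and -0.47 to 0.21 in S38A, IFRD1 from -0.045 to 0.064 in S38A, SLC35A4 from -0.012 to 0.15 in WT, and ATF4 in S38D versus WT from -0.21 to 0.20. In all, 606 single values of members kept direction and side of the threshold, 23 newly passed, 27 no longer did and 27 turned sign. The lone library left in a group after omission is assumed to vary like the other groups.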
